A study of Mus musculus with 20 samples.

Results

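The RNA of 10 inhibitory surface molecules of T cells was followed: Pdcd1, Ctla4, Lag3, Havcr2, Tigit, Cd160, Btla, Cd200, Entpd1 and Cd101. They were taken by gene symbol, and all 10 were found among the 49671 genes of the count table. All 10 were also among the 13290 genes with enough counts in at least 1 group to be tested. The study grew mouse T cells in culture and asked, by its title, whether long expansion in IL-7 and IL-15 keeps central and stem memory properties. CD8 or CD4 cells from spleen and inguinal lymph nodes were activated with antibodies to CD3 and CD28 in the presence of IL-2 (1 ng/mL). Expansion followed in IL-7 (10 ng/mL) plus IL-15 (50 ng/mL). All 4 groups share this treatment, and each has 5 libraries: CD8 week 1 and CD4 week 1 after 4 days of expansion, CD4 week 3 after 18 days and CD8 week 4 after 25 days. Every library came from cells sorted on CD44 and a further surface marker to a purity above 97%. Cells outside that gate were therefore largely removed, but a small part of each library can still come from them. The labels name polyclonal cells of albino B6 mice, activated for 72 h, and receptor transgenic cells of Marilyn-BLITC and MataHari-BLITC mice, activated for 24 h, but do not say which library came from which. They name no sex, age, animal or culture for a library either, so the tests below set differences against a spread between samples that may be technical. CD8 and CD4 long-term groups also differ in weeks of culture, so cell type and time cannot be told apart between them.

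Inhibitory receptors, also called checkpoint receptors, lower the response of a T cell when they bind a ligand on another cell. PD-1 (Pdcd1), TIGIT and BTLA carry tyrosine motifs in their tails that recruit phosphatases, CTLA-4 (Ctla4) competes with the costimulatory receptor CD28 for CD80 and CD86, LAG-3 (Lag3) binds MHC class II, and TIM-3 (Havcr2) binds galectin-9 among other ligands. CD39 (Entpd1) is an enzyme that removes phosphates from extracellular ATP, the first step towards immunosuppressive adenosine. Most of these genes are induced by T cell receptor signals, and sustained high levels of several together are known from exhausted T cells in chronic infection and tumours.

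The libraries held 13.3 to 28.3 M counted reads. RNA levels are given as CPM, read counts scaled to a common library size (TMM), in the order of replicates 1 to 5 wherever 5 values are listed. Cd8a and Cd8b1 summed to 988 to 2677 CPM of the library total in the CD8 libraries and 1.603 to 30.7 in the CD4 libraries, and Cd4 was listed at 0 in all CD8 week 4 libraries, in keeping with the labelled cell types. The myeloid marker Lyz2 was at 0 in every group, but other myeloid markers were not. The 7 myeloid markers, led by Cd68, summed to 9.33 to 23.6 CPM in CD8 week 1 and 5.06 to 23.3 in CD8 week 4. In CD8 week 4 this sum was highest in replicates 1 and 2 (19.1 and 23.3 CPM). In the CD4 libraries it was at most 4.18 CPM. Within the CD8 groups some libraries stood apart: CD8 week 4 replicates 1 and 2 had the highest summed NK cell markers (69.6 and 75.8 CPM, against 8.89 to 20.5 in replicates 3 to 5), and CD8 week 1 replicate 3 the lowest of its group (13.8, against 18.4 to 41.8). In the CD4 groups the regulatory T cell factor Foxp3 ran from 6.25 to 103 CPM at week 1 and from 0.394 to 45.4 at week 3. In bulk samples, fewer cells of a type and less RNA per cell cannot be told apart.

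Changes between long-term and week 1 cultures were tested with edgeR's quasi-likelihood test in 1 fit of all 20 libraries and called at a Benjamini-Hochberg adjusted p under 0.05 over the 13290 genes. In CD8 cells 5 members fell between week 1 and week 4 (Pdcd1, Ctla4, Lag3, Cd200 and Cd101), none rose and 5 did not pass. The background is large: 16.4% of all tested genes were called lower and 17.1% higher in that comparison. In CD4 cells 4 members fell between week 1 and week 3 (Pdcd1, Ctla4, Lag3 and Cd200), none rose and 6 did not pass, where 8.8% of all genes were called lower and 7.67% higher. The median log2 fold change of the 10 members was -1.44 in CD8 and -1.41 in CD4 cells, against 0.03 and 0.01 over all tested genes. In 4 members (Pdcd1, Tigit, Cd200 and Cd101) every CD8 week 4 library lay below every week 1 library, as it did for 9.78% of all genes, with 11% of genes higher in every library. In CD4 cells this held for Pdcd1, Ctla4 and Cd200 (3.88% of all genes lower and 4.27% higher in every library). Marker sums of other cell types moved between the same groups. The 6 gamma delta T cell genes, led by Tcrg-C1, summed to 8.91 to 38.7 CPM of the library total in CD4 week 1 and to 44.9 to 88.4 in CD4 week 3, without overlap, with Sox13 at 0 at week 3. In CD8 cells they summed to 56.8 to 79.8 at week 1 and 61.6 to 118 at week 4, with overlap, and the genes moved in opposite directions. The medians of Tcrg-C1 (10.6 to 39.4) and Trdc (7.06 to 11.9) were higher at week 4. Those of Tcrg-C2 (48.6 to 33.4) and Tcrg-C4 (3.98 to 3.06) were lower, and those of Sox13 and Blk were 0. The 6 B cell markers, led by Cd79b, summed to 9.50 to 13.1 CPM in CD8 week 1 and to 1.04 to 8.79 in CD8 week 4, without overlap, with Ms4a1, Pax5 and Ebf1 at 0 at week 4. They stood at 0.707 to 1.42 in CD4 week 1 and 0.178 to 1.31 in CD4 week 3. The 4 endothelial markers summed to 11.4 to 30.8 CPM in CD8 week 1 and to 3.15 to 13.01 in CD8 week 4, with overlap. Nearly all of this sum was Eng alone (mean 20.9 and 8.15 CPM), and Tie1 was at 0 in both groups. Cdh5 and Kdr went the other way, from medians of 0 at week 1 to 0.0806 and 0.152 CPM at week 4. The part of such cells in the members' changes was not tested.

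**Figure D1:**
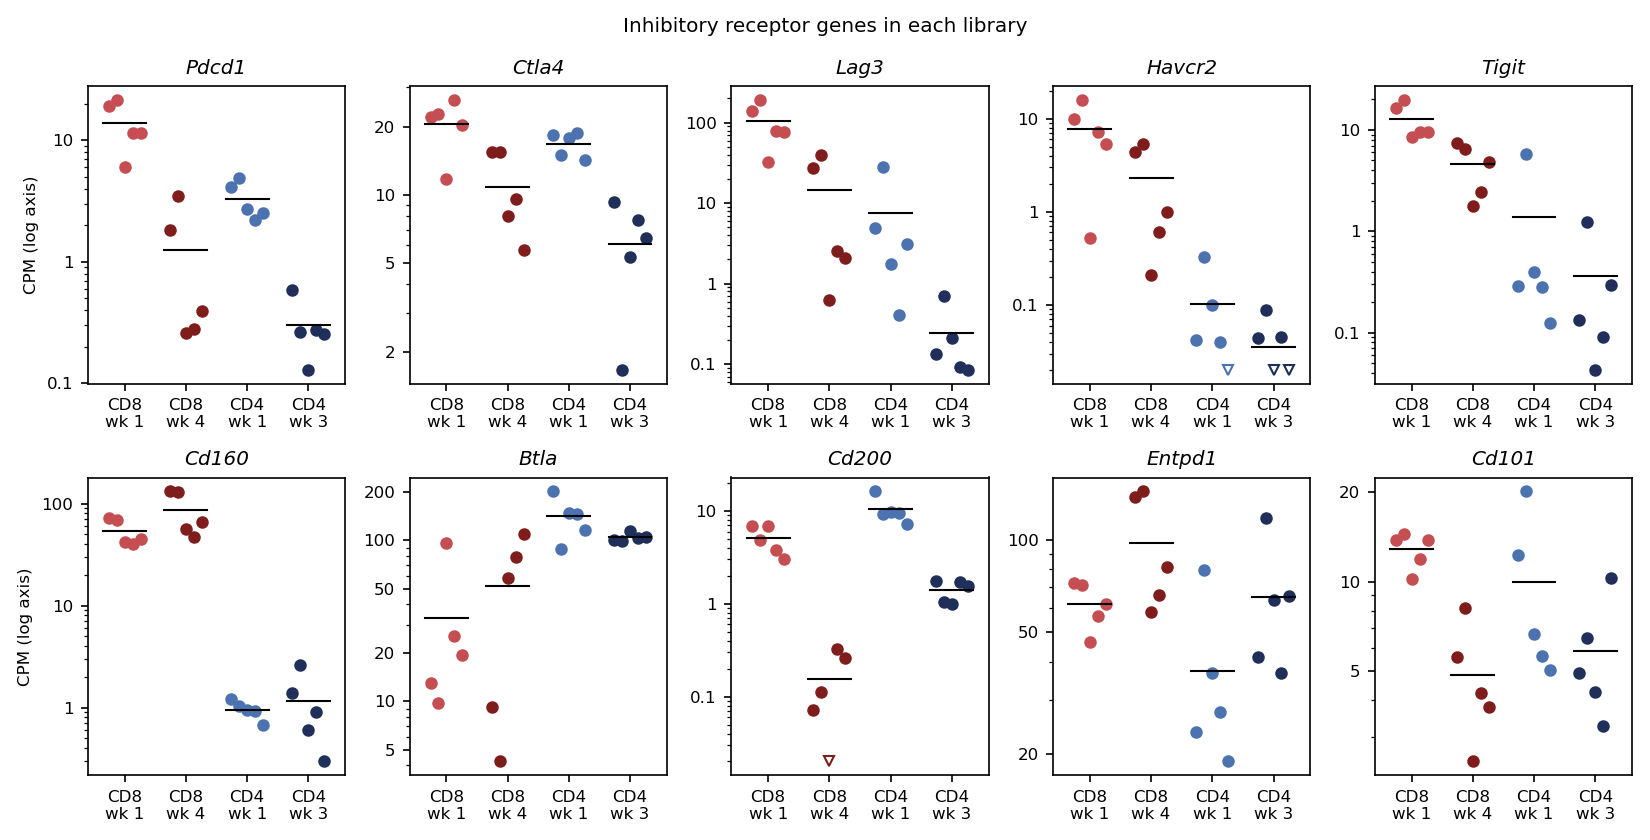
RNA level of each inhibitory receptor gene in CPM on a log axis, with 1 point per library in replicate order (left to right) and a line at the mean of the 5 libraries of a group; open triangles, drawn at a fixed place near the bottom, are libraries with 0 counts. Pdcd1 and Cd200 are lower in all long-term libraries than in all week 1 libraries of the same cell type, Cd160 is about 1 CPM in CD4 and 39.7 to 133 CPM in CD8 libraries, and Btla spreads over 4.22 to 109.7 CPM among CD8 libraries.

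Of the 4 members called lower in both cell types, 3 have promoters in the RefSeq table used (build GRCm38.p6): Pdcd1, Ctla4 and Cd200. The 250 bases before the start of each are shown because these genes fell together in CD8 and CD4 cells. Capitals mark the core letters of NFAT sites, GGAAA or its reverse complement TTTCC. NFAT is the calcium-dependent factor by which T cell receptor signals reach many such promoters.
Pdcd1 (chr1:94052554-94052803, minus strand): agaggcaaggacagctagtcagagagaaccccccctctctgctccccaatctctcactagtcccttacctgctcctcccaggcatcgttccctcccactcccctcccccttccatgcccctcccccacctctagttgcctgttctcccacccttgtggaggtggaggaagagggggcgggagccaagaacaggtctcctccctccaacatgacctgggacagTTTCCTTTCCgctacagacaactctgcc
Ctla4 (chr1:60908775-60909024, plus strand): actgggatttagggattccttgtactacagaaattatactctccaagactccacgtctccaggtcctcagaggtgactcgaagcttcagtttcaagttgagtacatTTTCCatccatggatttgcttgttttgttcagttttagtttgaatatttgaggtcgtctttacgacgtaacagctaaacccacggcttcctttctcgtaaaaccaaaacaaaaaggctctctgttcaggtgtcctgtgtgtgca
Cd200 (chr16:45409054-45409303, minus strand): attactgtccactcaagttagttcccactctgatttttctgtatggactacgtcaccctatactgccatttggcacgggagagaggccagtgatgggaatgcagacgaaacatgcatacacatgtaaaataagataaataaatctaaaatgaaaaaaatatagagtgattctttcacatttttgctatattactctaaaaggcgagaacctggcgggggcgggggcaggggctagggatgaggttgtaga
The Pdcd1 window held adjacent matches starting 28 and 23 bases before the start, the Ctla4 window 1 match 144 bases before it, and the Cd200 window none. Across the 9 members with an entry, 6 of 11 promoter windows held GGAAA on either strand, against 55.6% of the 32851 windows of the table. The AP-1 letters TGANTCA occurred in 1 of the 11 (Havcr2, 200 bases before the start; 6.75% of all windows) and the STAT letters TTCNNNGAA in 1 (the second Cd160 promoter, 234 bases before the start; 7.02% of all windows). The motifs do not overlap in these windows, a match describes letters only, and a window without one says nothing of the factor.

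The first receptors are the pair that antibodies used in cancer therapy target. Pdcd1 (ENSMUSG00000026285, chr1:94038305-94052553, minus strand; GRCm38 for all gene positions) encodes PD-1, the receptor of PD-L1 and PD-L2. It stood at 19.2, 21.7, 6.04, 11.4 and 11.6 CPM in CD8 week 1 and at 1.82, 3.49, 0.259, 0.281 and 0.392 CPM in CD8 week 4 libraries. The groups did not overlap, but week 4 fell into 2 higher libraries (replicates 1 and 2) and 3 low ones. The log2 fold change was -3.50 (SE 0.59, adjusted p 0.000439), an 11.3-fold lower level. It was -5.46 with the 2 higher week 4 libraries left out (adjusted p 1.56e-05), a choice made after seeing the data. Leaving them out deepens a fall by construction, so this value adds no support for one. In CD4 cells Pdcd1 stood at 4.15, 4.89, 2.70, 2.22 and 2.54 CPM at week 1 and at 0.581, 0.264, 0.129, 0.273 and 0.254 CPM at week 3. Every week 3 library was below every week 1 library, although the week 3 values rest on 3 to 13 counts each. Its log2 fold change in CD4 cells was -3.44 (SE 0.65, adjusted p 0.00305).

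Ctla4 (ENSMUSG00000026011, chr1:60887000-60915832, plus strand) encodes CTLA-4, which is also a constitutive product of regulatory T cells. CD8 week 1 libraries held 22.1, 22.6, 11.7, 26.4 and 20.4 CPM, and CD8 week 4 libraries 15.5, 15.4, 8.02, 9.57 and 5.70 CPM. The groups overlapped through the low week 1 replicate 3 and the higher week 4 replicates 1 and 2. Ctla4 was 1.91-fold lower at week 4 (log2 fold change -0.93, SE 0.33, adjusted p 0.0385), a call that was lost in 9 of 22 alternative analyses, with adjusted p up to 0.374. CD4 week 1 libraries held 18.4, 15.004, 17.8, 18.7 and 14.2 CPM, and week 3 libraries 9.25, 1.67, 5.27, 7.70 and 6.42 CPM. These groups did not overlap, and replicate 2 was by far the lowest of week 3. Its log2 fold change was -1.47 (SE 0.34, adjusted p 0.00921) and -1.26 with replicate 2 of both CD4 groups left out (adjusted p 0.0049). Foxp3, the defining factor of regulatory T cells, was at 30.2, 6.53, 54.6, 103 and 6.25 CPM of the library total in the same week 1 libraries and at 21.6, 0.394, 8.61, 45.4 and 0.749 CPM in the week 3 libraries. The summed level of the 5 regulatory T cell markers was 549 to 1256 CPM at week 1 and 374 to 758 CPM at week 3, most of it Il2ra, and no marker was at 0. Besides Foxp3, the medians of Lrrc32 (233 to 50.9), Il2ra (625 to 580) and Ikzf2 (3.02 to 2.49) were lower at week 3. That of Nrp1 was higher (1.16 to 2.31). The part of such cells in the Ctla4 result was not tested.

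Lag3 (ENSMUSG00000030124, chr6:124904361-124911705, minus strand), the CD4-related receptor of MHC class II, spread 64.5-fold between the lowest and the highest CD8 week 4 library. It stood at 139.5, 194, 32.7, 78.8 and 77.6 CPM in CD8 week 1 and at 27.5, 40.04, 0.621, 2.57 and 2.09 CPM in CD8 week 4 libraries. Week 4 replicate 2 overlapped week 1 replicate 3, whereas week 4 replicates 3 to 5 lay far below every week 1 library. The log2 fold change was -2.85 (SE 0.99, adjusted p 0.0329). It was -5.86 with week 4 replicates 1 and 2 left out (adjusted p 0.00215), a choice made after seeing the data. Dropping the highest week 4 libraries deepens a fall by construction, so this value adds no support for one. The call was lost in 6 of 22 alternatives, with adjusted p up to 0.253. In CD4 cells Lag3 stood at 4.85, 28.0, 1.75, 0.403 and 3.08 CPM at week 1 and at 0.134, 0.703, 0.214, 0.0911 and 0.0845 CPM at week 3. Replicate 2 was far above the rest in both CD4 groups, and week 1 replicate 4 was below week 3 replicate 2. Its log2 fold change was -4.92 (SE 1.33, adjusted p 0.0193), -3.34 without CD4 week 1 replicate 2 (adjusted p 0.0851) and -4.20 without replicate 2 of both groups (adjusted p 0.062). The 28 counts of all CD4 week 3 libraries together show how little Lag3 RNA was left to measure.

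Havcr2 (ENSMUSG00000020399, chr11:46454935-46481255, plus strand), which encodes TIM-3, was measured at more than a few counts only in CD8 libraries. CD8 week 1 libraries held 9.85, 16.1, 0.528, 7.18 and 5.42 CPM, and CD8 week 4 libraries 4.39, 5.35, 0.207, 0.603 and 1.00 CPM. The ranges overlapped at both ends, with week 1 replicate 3 as low as the low week 4 libraries. Its log2 fold change of -1.76 did not pass (SE 0.75, adjusted p 0.0768). With a library left out it ran from -2.30 to -1.32 (adjusted p 0.0213 to 0.213). It passed without week 1 replicate 3, the lowest of its group (-2.06, adjusted p 0.0213), and without week 4 replicate 2, the highest (-2.30, 0.0364). Leaving out week 4 replicates 1 and 2, chosen after seeing the data, gave -3.66 (adjusted p 0.00512). Dropping such libraries deepens a fall by construction, so these values add no support for one. In CD4 cells all libraries together held 11 counts at week 1 and 4 at week 3, at most 0.329 CPM in a library, and a change was not detectable at this depth (log2 fold change -1.34, SE 1.58, adjusted p 0.584).

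Tigit (ENSMUSG00000071552, chr16:43648861-43664184, minus strand) encodes a receptor that shares the ligand CD155 (Pvr) with the activating receptor CD226. It stood at 16.3, 19.96, 8.62, 9.65 and 9.49 CPM in CD8 week 1 and at 7.39, 6.42, 1.76, 2.45 and 4.83 CPM in CD8 week 4 libraries. Every week 4 library was below every week 1 library. Even so, the log2 fold change of -1.48 (SE 0.78) did not pass in the fit of all 20 libraries (adjusted p 0.152). With the CD8 libraries fitted alone it did (-1.50, adjusted p 0.0146). The CD4 libraries held 0.290, 5.83, 0.400, 0.282 and 0.125 CPM at week 1 and 0.134, 1.23, 0.0428, 0.0911 and 0.296 CPM at week 3. Replicate 2 was far above the other libraries of both CD4 groups. The CD4 change of -1.91 did not pass (SE 0.94, adjusted p 0.164), and its value depended on which replicate 2 libraries were kept. It was 0.40 without CD4 week 1 replicate 2 (adjusted p 0.763), -0.90 without replicate 2 of both groups (0.374) and -3.22 without CD4 week 3 replicate 2 (0.034, past the threshold).

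Cd160 and Btla bind the same ligand, HVEM (Tnfrsf14), and neither passed the test in CD8 or CD4 cells. Cd160 (ENSMUSG00000038304, chr3:96798763-96829351, minus strand) encodes a glycolipid-anchored receptor of NK and cytotoxic T cells. It stood at 71.8, 69.0, 41.5, 39.7 and 44.9 CPM in CD8 week 1 and at 133, 129.6, 56.4, 47.3 and 65.6 CPM in CD8 week 4 libraries. Week 4 replicates 1 and 2 were above all week 1 libraries and the others among them. The log2 fold change was 0.69 (SE 0.35, adjusted p 0.137), and 0.08 without those 2 libraries (adjusted p 0.886). In CD4 cells all values were near the lower end: 1.20, 1.03, 0.950, 0.928 and 0.667 CPM at week 1 and 1.38, 2.59, 0.600, 0.911 and 0.296 CPM at week 3. The groups overlapped widely (log2 fold change 0.27, SE 0.47, adjusted p 0.72; -0.23 without replicate 2 of both groups).

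Btla (ENSMUSG00000052013, chr16:45224315-45252895, plus strand) encodes the B and T lymphocyte attenuator, which is high on resting lymphocytes. CD8 week 1 libraries held 13.02, 9.71, 96.7, 25.4 and 19.3 CPM, and CD8 week 4 libraries 9.22, 4.22, 58.1, 79.3 and 109.7 CPM. Its high and low libraries were the reverse of those of Lag3: week 1 replicate 3 was highest, and week 4 replicates 1 and 2 were lowest. The log2 fold change of 0.67 did not pass (SE 0.66, adjusted p 0.46). It was -0.74 in replicates 1 to 3 alone and 2.04 in replicates 4 and 5 alone (adjusted p 0.738 and 0.000687). In CD4 cells Btla stood at 203, 89.0, 149, 147 and 117 CPM at week 1 and at 100.5, 99.0, 115, 104 and 104 CPM at week 3. The week 3 libraries lay within a narrow band inside the week 1 range (log2 fold change -0.43, SE 0.65, adjusted p 0.682).

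Cd200 (ENSMUSG00000022661, chr16:45382135-45409053, minus strand) is the ligand of the inhibitory receptor CD200R1 rather than a receptor. It stood at 6.90, 4.89, 6.80, 3.82 and 3.01 CPM in CD8 week 1 and at 0.0714, 0.113, 0, 0.322 and 0.261 CPM in CD8 week 4 libraries. All week 4 libraries were far below week 1, with 18 counts in the 5 libraries together. Its log2 fold change was -4.96 (SE 0.45, adjusted p 4.12e-06), 31.1-fold lower, and it passed in all 22 alternatives, between -6.53 and -3.56. In CD4 cells Cd200 stood at 16.4, 9.22, 9.65, 9.44 and 7.29 CPM at week 1 and at 1.74, 1.06, 0.985, 1.73 and 1.56 CPM at week 3. Here too no libraries overlapped (log2 fold change -2.87, SE 0.37, adjusted p 0.00013).

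Entpd1 (ENSMUSG00000048120, chr19:40612366-40741602, plus strand), the ectonucleotidase CD39, had a higher mean in both long-term groups than at week 1 without passing the test. CD8 week 1 libraries held 72.4, 71.3, 46.5, 56.3 and 61.7 CPM, and CD8 week 4 libraries 138, 144, 57.9, 66.0 and 81.7 CPM. As for Cd160, week 4 replicates 1 and 2 stood above the others, and the change of 0.66 did not pass (SE 0.37, adjusted p 0.181; 0.15 without those libraries). In CD4 cells it stood at 23.6, 79.5, 36.7, 27.4 and 18.96 CPM at week 1 and at 41.6, 117, 63.5, 36.9 and 65.4 CPM at week 3. Replicate 2 was highest in both CD4 groups. The log2 fold change of 0.80 did not pass (SE 0.37, adjusted p 0.142), but passed without replicate 2 of both groups (0.97, adjusted p 0.0222).

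Cd101 (ENSMUSG00000086564, chr3:100993529-101029556, minus strand) encodes an immunoglobulin-family protein known as a marker of terminally exhausted CD8 cells. It stood at 13.8, 14.5, 10.2, 11.9 and 13.9 CPM in CD8 week 1 and at 5.57, 8.17, 2.49, 4.22 and 3.79 CPM in CD8 week 4 libraries. The groups did not overlap, and the log2 fold change was -1.41 (SE 0.38, adjusted p 0.0098). In CD4 cells it stood at 12.3, 20.2, 6.65, 5.61 and 5.04 CPM at week 1 and at 4.91, 6.46, 4.24, 3.28 and 10.3 CPM at week 3. These libraries overlapped, and the change of -0.77 did not pass (SE 0.38, adjusted p 0.166).

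CD8 libraries carry numbers in their titles in a lower range, A (replicates 1 to 3 of each group), and a higher range, B (replicates 4 and 5), whose meaning the labels do not give, and the CD8 changes were recomputed within each. In range A, which holds the high week 4 replicates 1 and 2 and the low week 1 replicate 3, only Cd200 passed (-6.53, adjusted p 0.0262), so 1 member fell and none rose, where 2.31% of all genes tested there were called lower and 1.85% higher. Pdcd1 stood there at -3.10, Ctla4 at -0.56, Lag3 at -2.45 and Cd101 at -1.27 (adjusted p 0.0877, 0.374, 0.253 and 0.132). In range B 7 members fell: Pdcd1 (-5.10), Ctla4 (-1.64), Lag3 (-5.08), Havcr2 (-3.01), Tigit (-1.42), Cd200 (-3.56) and Cd101 (-1.69), and Btla rose (2.04), where 25.1% of all genes were called lower and 24.1% higher. With the range as a term in a fit of the CD8 libraries alone, 6 members fell and none rose: Pdcd1 (-3.76), Ctla4 (-0.98), Lag3 (-3.38), Tigit (-1.49), Cd200 (-4.97) and Cd101 (-1.44), where 16.6% of all genes were called lower and 15% higher. Cd160 stood at 0.79 and 0.40 in ranges A and B and Entpd1 at 0.82 and 0.31, and neither passed in either.

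The change over culture was then compared between the cell types by the difference of the log2 fold changes (CD8 minus CD4). No member passed this test, where 0.248% of all genes were called higher and 0.406% lower. The differences were -0.06 for Pdcd1, with a standard error of 1.24, and 0.54 for Ctla4, with a standard error of 0.47. For Pdcd1 a large difference either way could not be resolved. Its standard error, taken from the F statistic at a difference near 0, is only rough. For Ctla4 no difference and a positive one of moderate size could not be told apart. Lag3 stood at 2.07 (SE 1.67, adjusted p 0.698). Cd200 was about as far the other way at -2.09 (SE 0.57), a fall 4.25-fold deeper in CD8 cells. The Cd200 difference did not pass (adjusted p 0.104). DESeq2 called it (adjusted p 0.008), and the adjusted p ran from 0.008 to 0.215 over all alternatives. Cd200 was the only member with an unadjusted p under 0.05 for the difference.

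**Figure D2:**
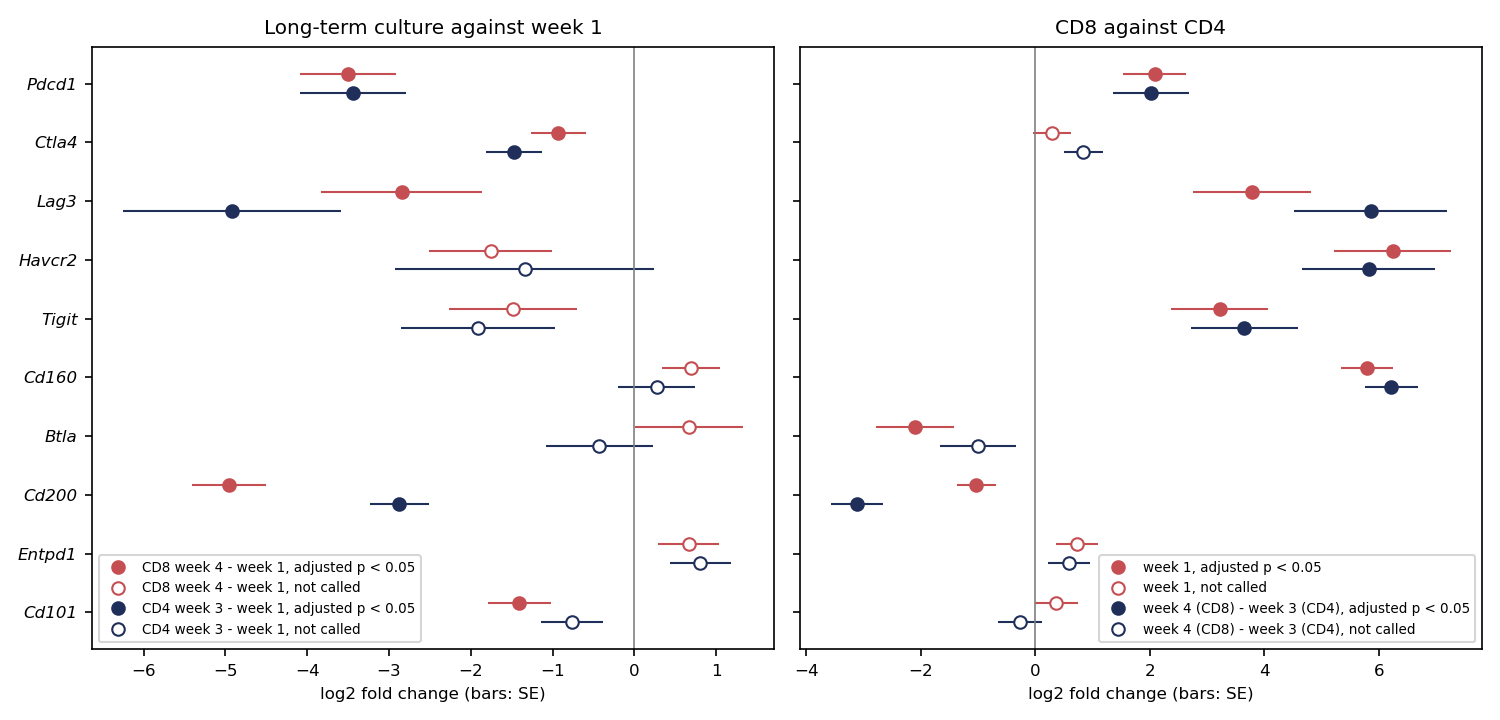
Log2 fold change of each member (points) with its standard error (bars) for long-term culture against week 1 in each cell type (left) and for CD8 against CD4 cells at each stage (right); filled points have an adjusted p under 0.05 over 13290 genes. Pdcd1, Ctla4, Lag3 and Cd200 are filled on the negative side for both cell types at left, and Pdcd1, Lag3, Havcr2, Tigit and Cd160 on the positive side at both stages at right.

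CD8 and CD4 cells were then compared at each stage. All CD4 titles carry numbers in a further range, C, apart from A and B, so cell type and title range cannot be told apart in these comparisons. At week 1, 5 members were higher in CD8 cells, 2 were lower and 3 did not pass, against 19.1% of all genes called higher and 19% lower. The higher members were Pdcd1 (log2 fold change 2.08, adjusted p 0.00587), Lag3 (3.78, 0.00753), Havcr2 (6.24, 0.000136), Tigit (3.22, 0.00606) and Cd160 (5.80, 4.65e-08). In all 5 every CD8 library was above every CD4 library, as in 12.4% of all genes. Btla was lower in CD8 cells (-2.10, SE 0.68, adjusted p 0.0208), where only CD8 replicate 3 at 96.7 CPM overlapped the CD4 libraries, of which replicate 2 was lowest at 89.0 CPM. Without CD8 week 1 replicate 3 the Btla difference was -3.06 (adjusted p 0.00141), but the difference no longer passed when CD8 week 1 replicate 1, 2 or 5 was left out (adjusted p 0.0526, 0.0519 and 0.0511). Cd200 was lower in every CD8 library (-1.03, SE 0.34, adjusted p 0.0222; 11.3% of all genes were lower in every library), and it no longer passed when its highest library, CD4 week 1 replicate 1, was left out (-0.81, adjusted p 0.0837), or CD8 week 1 replicate 4 or 5 (adjusted p 0.0583 and 0.0609). Ctla4, Entpd1 and Cd101 did not pass (log2 fold changes of 0.30, 0.73 and 0.37, SE 0.33, 0.37 and 0.37).

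In the long-term groups 5 members were higher in CD8 cells (Pdcd1, Lag3, Havcr2, Tigit and Cd160), Cd200 was lower and 4 did not pass, against 17.7% of all genes called higher and 15% lower. Cd160 differed most, with 47.3 to 133 CPM in CD8 week 4 and 0.296 to 2.59 CPM in CD4 week 3 libraries (log2 fold change 6.22, SE 0.46, adjusted p 1.31e-08). Havcr2 (5.82, SE 1.16) and Tigit (3.65, SE 0.93) were also higher in every CD8 library (11.3% of all genes; 9.3% were lower in every library). For Pdcd1 (2.02, SE 0.66, adjusted p 0.0253) and Lag3 (5.85, SE 1.34, adjusted p 0.00256) the groups overlapped, and CD8 replicates 1 and 2 were the highest libraries. Without them Pdcd1 stood at 0.06 (adjusted p 0.953) and Lag3 at 2.84 (adjusted p 0.118). Cd200 was lower in every CD8 library (-3.12, SE 0.46, adjusted p 4.38e-05).

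Within a group, several members were high or low in the same libraries. Of the 10 members, 7 were lowest in CD8 week 1 replicate 3 (Pdcd1, Ctla4, Lag3, Havcr2, Tigit, Entpd1 and Cd101), while Btla was highest there. In CD8 week 4, 8 members were highest in replicate 1 or 2, and 7 were lowest in replicate 3. CD4 replicate 2 was highest for 6 members at week 1 and for 5 at week 3. Btla was lowest in replicate 2 of all 4 groups, and the title numbers of the week 1 and long-term libraries with the same replicate number lie 3 or 4 apart, but the labels do not say that this pairs them. Among markers of other cell types, Itgax and Klrb1c were highest in replicates 1 and 2 of both CD8 groups. In CD4 replicate 2 they stood at no more than 0.394 CPM of the library total. Itgax, the gene of CD11c, which dendritic cells and some activated T cells express, stood at 20.6, 26.02, 1.55, 2.75 and 2.64 CPM of the library total in CD8 week 1 and at 36.2, 36.4, 2.24, 2.86 and 6.96 CPM in CD8 week 4 libraries. Klrb1c, which encodes NK1.1, stood at 19.95, 20.5, 2.74, 7.35 and 6.79 CPM and at 42.2, 47.6, 6.10, 6.28 and 12.6 CPM. The 5 dendritic markers summed to 2.20 to 26.2 CPM in CD8 week 1 and 2.39 to 36.6 CPM in CD8 week 4, most of it Itgax in the high libraries, and to at most 0.438 CPM in CD4 libraries. Flt3 and Siglech were at 0 in both CD8 groups, and of 5 NK markers Klra4 was at 0 in CD8 week 4. The natural cytotoxicity receptor gene Ncr1 was at 0.0754 to 0.479 CPM at week 1 and 0 to 3.599 CPM at week 4, where replicate 5 (2.64) was above replicate 2 (1.97). Klre1, the NK marker with the highest mean in CD8 week 1, went the other way. Its median fell from 14.98 to 5.19 CPM, with ranges of 10.8 to 21.3 and 2.79 to 26.1 that overlap. Klra8 stayed near 0 in both CD8 groups. The part of such cells or of the sort gate in the members' levels was not tested. Summed over the 10 members, the level per kilobase (RPKM, CPM divided by the exon length in kilobases) ran from 91.7 to 187 in CD8 week 1, 56.1 to 115 in CD8 week 4, 52.3 to 88.3 in CD4 week 1 and 44.0 to 57.2 in CD4 week 3 libraries, so neither cell type's ranges were apart.

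**Figure D3:**
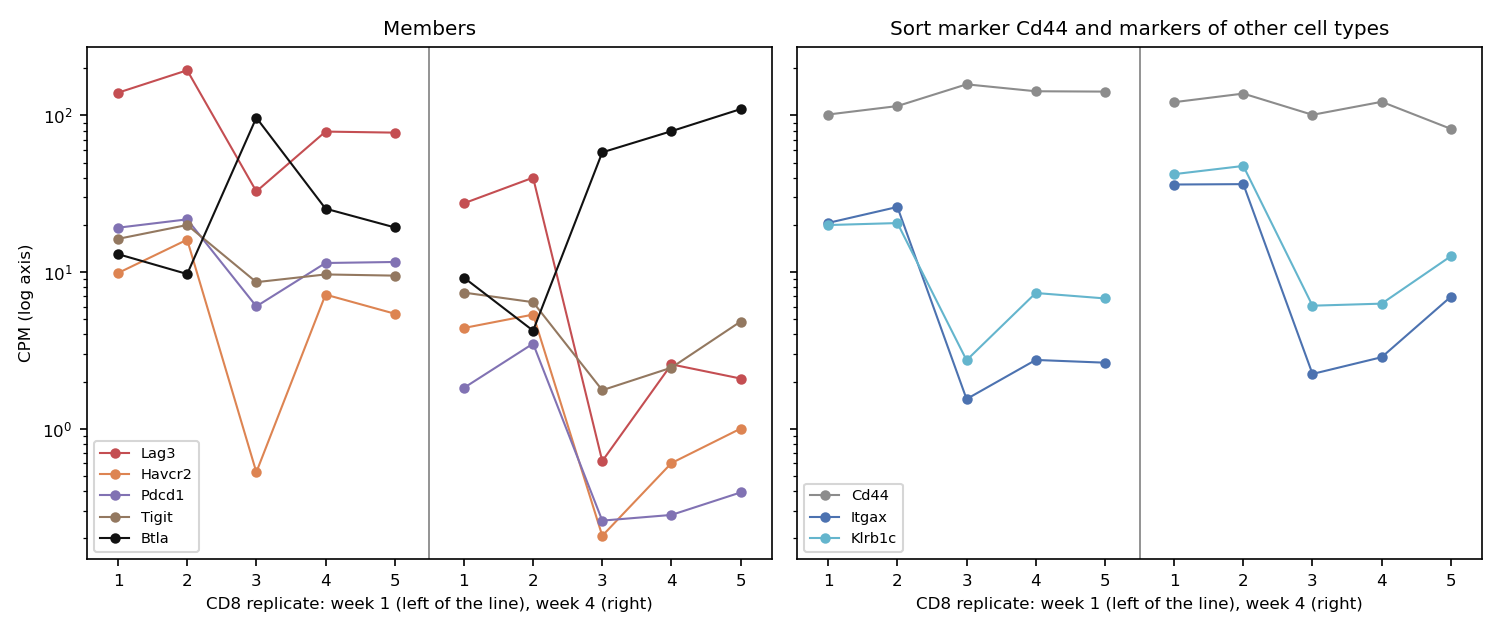
RNA levels in the 10 CD8 libraries on a log axis, week 1 replicates 1 to 5 left and week 4 replicates right of the grey line: 5 members in CPM on TMM-scaled library sizes (left panel) and the sort marker Cd44 with markers of other cell types in CPM of the library total (right panel); lines only join the libraries of a group. Btla is high and Lag3, Havcr2, Itgax and Klrb1c are low in week 1 replicate 3 and week 4 replicates 3 to 5. In week 1 replicates 4 and 5 Itgax is low too, but Btla is not high.

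Levels of different genes were compared per exon length, in RPKM as mean ± SD over the 5 libraries of a group. In CD8 week 1 the order was led by Lag3 (49.6 ± 29.8), Cd160 (20.2 ± 5.93) and Tigit (13.3 ± 5.24), followed by Entpd1, Btla, Ctla4, Pdcd1, Cd101, Havcr2 and, last, Cd200 (1.53 ± 0.525). The ranges of all neighbours in this order overlapped. In CD8 week 4 Cd160 (32.7 ± 15.7), Entpd1 (17.5 ± 7.26) and Btla (15.998 ± 13.9) led, Lag3 had dropped to the fourth place (6.90 ± 8.58), and Pdcd1 (0.647 ± 0.733) and Cd200 (0.0462 ± 0.0404) closed the order as the only neighbours whose ranges did not overlap. In both CD4 groups Btla led with no overlap with the next gene: 43.3 ± 13.04 over Ctla4 (7.22 ± 0.883) at week 1, and 32.1 ± 1.956 over Entpd1 (11.6 ± 5.73) at week 3. Ctla4, Entpd1, Lag3, Cd200, Cd101, Pdcd1 and Tigit followed in CD4 week 1 with ranges that overlapped from neighbour to neighbour, then Cd160 (0.362 ± 0.0737), and Havcr2 was last and apart (0.0376 ± 0.0484). In CD4 week 3 Entpd1 stood apart from Ctla4 (2.60 ± 1.23), Cd101 (1.75 ± 0.827) from Cd160 (0.438 ± 0.34), and Lag3 (0.116 ± 0.124) from Havcr2 (0.0131 ± 0.0136).

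**Figure D4:**
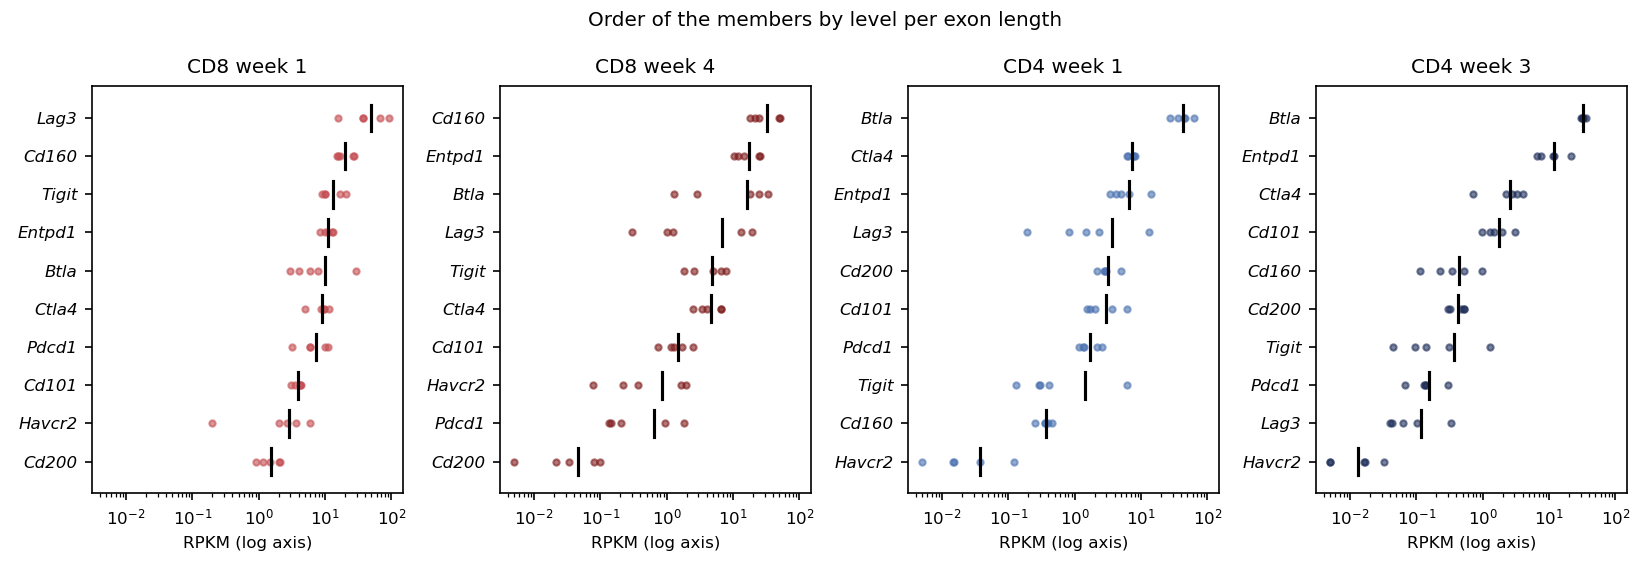
RNA level of the 10 members per exon length (RPKM, log axis) in each group, ordered by the group mean (black bar), with 1 point per library; libraries at 0 are drawn at the left end at a fixed place. Lag3 heads CD8 week 1, Cd160 CD8 week 4 and Btla both CD4 groups.

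The counts of related genes below stand beside the shares over all genes given above, 17.1% called higher and 16.4% lower in CD8 cells and 7.67% and 8.8% in CD4 cells, and on lists this short nothing is read from a share near them. Of 14 listed ligands and binding partners 11 were tested, of which 1 rose and 4 fell in CD8 cells and 1 rose and 2 fell in CD4 cells (median log2 fold changes -0.17 and -0.32). Cd86, a ligand of CTLA-4 and CD28, fell in both (-3.75, adjusted p 0.00352, and -4.17, adjusted p 0.0104), from 7.70 ± 4.15 to 0.572 ± 0.435 CPM in CD8 cells and from 2.64 ± 4.36 to 0.141 ± 0.123 CPM in CD4 cells. Cd80, the other ligand of that pair, fell in CD8 cells (-1.54, adjusted p 0.0307), as did Hmgb1, a ligand of TIM-3 (-0.69, 0.00185; in CD4 cells -0.43, 0.048). Tnfrsf14, the partner of BTLA and CD160, rose in CD8 cells from 21.3 ± 3.16 to 32.7 ± 3.99 CPM (0.62, adjusted p 0.00292; in CD4 cells 0.16, 0.445). Cd200r1, the receptor of CD200, rose in CD4 cells from 6.21 ± 1.63 to 21.5 ± 4.51 CPM (1.79, adjusted p 0.00258) while its ligand Cd200 fell there; in CD8 cells it stood at 0.30 (adjusted p 0.509). Cd274, which encodes PD-L1, did not pass in either cell type (0.07 and -0.66, adjusted p 0.887 and 0.174).

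Costimulatory counterparts, some of which share a ligand or a gene cluster with a member, mostly did not pass. In CD8 cells 1 of 8 genes rose and none fell, and in CD4 cells 2 fell and none rose (medians 0.03 and -0.06). Cd28 and Icos, the activating receptors beside Ctla4 on chromosome 1, stood at -0.15 and -0.53 in CD8 and at -0.21 and 0.03 in CD4 cells (adjusted p 0.667, 0.0934, 0.573 and 0.937). Cd226, the activating receptor that competes with TIGIT, rose in CD8 cells from 102 ± 12.3 to 137 ± 12.7 CPM (0.42, adjusted p 0.0225), and stood at 0.17 in CD4 cells (0.419). Cd96, which shares that ligand, stood at -0.08 and -0.02 (adjusted p 0.75 and 0.947). In CD4 cells Crtam and Cd2, both adhesion receptors of T cells, fell (-0.996, adjusted p 0.0272, and -0.39, 0.035).

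Entpd1 acts upstream of CD73 (Nt5e), the enzyme that makes adenosine from AMP, and Nt5e rose in both cell types. It went from 65.2 ± 20.4 to 252 ± 106 CPM in CD8 cells (1.95, adjusted p 0.000544) and from 96.2 ± 52.4 to 266 ± 27.7 CPM in CD4 cells (1.47, adjusted p 0.00835). Enzymes that clear adenosine fell in both: Adk, adenosine kinase (-0.72 and -0.67, adjusted p 0.00207 and 0.00774), and Ada, adenosine deaminase (-0.71 and -0.82, adjusted p 0.0274 and 0.0259). Slc29a1, a nucleoside transporter, fell in CD8 cells (-0.51, adjusted p 0.0175). The receptor gene Adora2a did not pass (0.03 and -0.11, adjusted p 0.931 and 0.761). Of the 7 listed genes of this axis, 1 rose and 3 fell in CD8 cells and 1 rose and 2 fell in CD4 cells (medians -0.51 and -0.43).

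Genes that carry the receptors' signals or their traffic to and from the surface gave 3 rises and 3 falls among 18 in CD8 cells, and 1 rise and 5 falls in CD4 cells (medians -0.01 and -0.07), the CD8 counts being near the shares over all genes. Ptpn6, which encodes the phosphatase SHP-1, fell in both (-0.62, adjusted p 0.0038, and -0.75, 0.00347), as did Ppp2ca, the catalytic subunit of the phosphatase PP2A, by small amounts (-0.28, 0.000488, and -0.23, 0.00453). The scaffold subunit gene of PP2A, Ppp2r1a, fell in CD8 cells (-0.20, adjusted p 0.0189). Ptpn11, which encodes SHP-2, did not pass (-0.07 and -0.13, adjusted p 0.319 and 0.0827). Fyn and Lck, kinases that start T cell receptor signalling, rose in CD8 cells (0.45, adjusted p 0.00147, and 0.17, 0.0316), and in CD4 cells Lck fell (-0.21, 0.0238) while Fyn stood at -0.24 (0.0735). For these kinases the difference between the cell types passed (0.68, adjusted p 0.018, and 0.38, 0.0409). In CD4 cells Csk, the kinase that restrains LCK, fell too (-0.25, adjusted p 0.019). The 1 rise in CD4 cells was Pag1 (0.47, adjusted p 0.0272), which also rose in CD8 cells (0.40, 0.0339).

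Of 11 tested inhibitory surface molecules outside the 10 members, 2 rose and 3 fell in CD8 cells, and 1 rose and 2 fell in CD4 cells (medians 0.06 and -0.02), with the CD8 rises and the CD4 rise near the shares over all genes. Cd5 and Cd6, which dampen T cell receptor signals, fell in both cell types (Cd5 -0.86 and -0.81, adjusted p 0.000108 and 0.00063; Cd6 -0.52 and -0.82, 0.0101 and 0.00191). Vsir, which encodes VISTA, rose in CD8 cells from 279 ± 28.1 to 459.3 ± 95.7 CPM (0.72, adjusted p 0.00059), as did the adaptor Lax1 (0.84, 0.00114). Klrc1, which encodes NKG2A, rose in CD4 cells (2.42, adjusted p 0.00412), where its level stayed low at 0.125 ± 0.0621 and 0.687 ± 0.173 CPM against 73.1 ± 17.4 and 77.7 ± 36.9 CPM in CD8 cells.

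Among 19 tested transcription factors known to act on these receptors, 3 rose and 5 fell in CD8 cells, and none rose and 8 fell in CD4 cells (medians -0.04 and -0.47). Tox, which drives Pdcd1 and other receptors in exhausted cells, fell in both (-3.03, adjusted p 0.000585, and -2.10, 0.00843). Nr4a1, an immediate target of T cell receptor signals, fell in both as well (-2.78, 0.00603, and -2.63, 0.0189). Nr4a2 fell in CD8 cells (-1.36, adjusted p 0.0002), as did Nr4a3 (-1.38, 0.031), and Foxo1 and Nfatc2 rose there (0.63, 0.000186, and 0.50, 0.00806). Maf, a factor of IL-10 and helper cell programmes, rose in CD8 cells and fell in CD4 cells (1.76, adjusted p 0.0231, and -1.71, 0.0356), and this difference between the cell types passed (3.47, adjusted p 0.0458). In CD4 cells Batf (-0.69, adjusted p 0.0118), Nr4a3 (-2.03, 0.0135) and Irf4 (-1.70, 0.0145) fell as well. Of 8 genes of recent activation, 3 fell in CD8 and 2 in CD4 cells and none rose (medians -0.71 and -0.40). Tnfrsf4, the gene of OX40, fell in both (-1.63, adjusted p 0.000132, and -1.09, 0.00515). Il2ra (-1.29, adjusted p 0.00158) and the proliferation gene Mki67 (-1.91, 0.0252) fell in CD8 cells, and Tnfrsf18 in CD4 cells (-0.50, 0.0134).

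The genes most like each member over the 20 libraries were found by the root mean square difference of log2 CPM after centring each gene, among 10264 protein-coding genes. The nearest were Ptms for Pdcd1 (difference 1.00, where Pdcd1 itself spread by 2.12 around its mean), Zcchc3 for Ctla4 (0.47), Tlcd2 for Lag3 (1.18), Filip1 for Havcr2 (0.65), Smim3 for Tigit (0.74), Gpr160 for Cd160 (0.60), Pou2af1 for Btla (0.45), Tox for Cd200 (0.92), Metrnl for Entpd1 (0.39) and Pck2 for Cd101 (0.36). Next came Bcat1 and Igf2bp3 for Pdcd1, Capn3 and Tpmt for Ctla4, Ebi3 and Tnfrsf8 for Lag3, Dmwd and Lat2 for Havcr2, Pdcd1lg2 and Ptpn5 for Tigit, Klrc2 and Dsg2 for Cd160, Gata1 and Cacna2d4 for Btla, Sfmbt2 and Spry1 for Cd200, Tmem159 and Otub2 for Entpd1, and Tet1 and Clip2 for Cd101. Among the members themselves Ctla4 and Cd101 were nearest (0.86), then Entpd1 and Cd101 (1.04) and Havcr2 and Tigit (1.08). Lag3 and Btla were farthest apart (4.61).

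The nearest tested genes on either side of the members gave no single pattern. Ptms, which encodes parathymosin, lies 1976 bp from Lag3 on chromosome 6 and fell in both cell types (-2.14, adjusted p 0.00353, and -1.71, 0.0246). On the other side of Lag3 lies Cd4, 16.1 kb away, which held 1 to 11 counts in CD8 week 1 libraries and stood at -0.23 (adjusted p 0.422) in CD4 cells. Both tested neighbours of Cd101 on chromosome 3 fell in both cell types: Ptgfrn, 10.7 kb after it (-2.20, adjusted p 0.000363, and -1.41, 0.0106), and Ttf2, 23.9 kb before it (-1.05, 0.000585, and -0.61, 0.0303). Btla and Cd200 are neighbours on chromosome 16, 129.2 kb apart, and stood at 0.67 (not called) and -4.96 in CD8 cells. Those of Tigit, which itself did not pass, had the opposite sign to it in CD8 cells, where both rose: Zbtb20 (0.98, adjusted p 0.00448; in CD4 cells 0.67, 0.0554) and Qtrt2 (0.56, 0.0186; in CD4 cells 0.57, 0.0316). Beside Havcr2, Med7 fell in CD8 cells (-0.64, adjusted p 0.0391) and Rack1, 2319.1 kb away, rose in both cell types (0.27, 0.0104, and 0.36, 0.00522). Abhd10, the other neighbour of Cd200, fell in both (-0.56, adjusted p 0.000519, and -0.35, 0.0193). The tested neighbours of Pdcd1 did not pass in the long-term comparisons (D2hgdh 0.31 and 0.21, Fam174a 0.19 and 0.28). The counting was strand-specific, so reads of a neighbour on the other strand were not counted for a member. Reads running on from a neighbour on the same strand could be, and the strands of the neighbours, Ptms among them, were not compared.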

How the data were processed

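RNA was sequenced from 20 libraries of sorted T cells. A further sort marker beside CD44 is not reported here. The authors deposited whole-number read counts per gene for all libraries in 1 table, beside the exon length (bp) of every gene. Per the submitters' processing notes reads were aligned with STAR to mm10. Per the file headers they were counted over exons with featureCounts 1.6.3 on the reverse strand, with GENCODE M12 on GRCm38, and multi-mapping reads or reads of overlapping genes were not added by any option. All 20 count columns map to 1 sample each by title. Gene names come from a name table, which matched 49326 of 49671 identifiers.

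Counts were tested with edgeR 4.0.16 (filterByExpr, TMM scaling, quasi-likelihood fit of 4 group means) in R 4.3.3. Standard errors come from the F statistic, as the absolute log2 fold change over its root. CPM use TMM-scaled library sizes, RPKM also the deposited length, and markers CPM of the library total. Calls have a Benjamini-Hochberg adjusted p under 0.05, and adjusted p in the text are edgeR's unless another tool is named. The script was tested on simulated data with known answers. Alternatives were DESeq2 1.42.0, limma-voom (limma 3.58.1), other scalings and filters, 1 cell type alone, CD8 title ranges A and B, and each library left out. Leaving out CD8 week 4 replicates 1 and 2, or replicate 2 of both CD4 groups, and a block of neighbouring title numbers were added after seeing the data. The members and lists were chosen with earlier results of these data known. Named genes are the 10 members, up to 4 called genes with the smallest adjusted p per list and long-term comparison (with fixed counterparts), the 3 genes most like each member, and tested neighbours. Cd274, Ptpn11, Pag1, Maf and Nfatc2 lie outside that rule and were chosen after their values were seen. Promoters come from RefSeq (GRCm38.p6), where Lag3 was not matched. Protein sequences and their motifs were not analysed here.

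CPM under about 0.2 rest on few reads. The labels name no library as polyclonal or transgenic, and no uncultured cells or other cytokines were compared.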

Additional observations from a re-analysis of the deposited data

Results flagged for a closer look

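In 6 of the 40 sets of 5 libraries (10 members in 4 groups), the highest library stood apart by Dixon's criterion, applied to CPM on a linear scale. Its chance rate of about 1 in 20 sets holds for normally distributed values. CPM on a linear scale need not be so, and no excess over chance is read from the 6 sets. The 4 sets of Lag3 and Tigit have CD4 replicate 2 as that library. Lag3 was at 27.99 CPM in CD4 week 1 replicate 2 (others 0.403 to 4.85) and at 0.703 CPM in CD4 week 3 replicate 2 (others 0.0845 to 0.214). Tigit was at 5.83 CPM in CD4 week 1 replicate 2 (others 0.125 to 0.400) and at 1.23 CPM in CD4 week 3 replicate 2 (others 0.0428 to 0.296). Btla was at 96.7 CPM in CD8 week 1 replicate 3 (others 9.71 to 25.4), and Cd200 at 16.4 CPM in CD4 week 1 replicate 1 (others 7.29 to 9.65). In CD4 replicate 2 Foxp3 was low (6.53 CPM of the library total at week 1 and 0.394 at week 3) and Cd44 was highest of its group (108 and 159 CPM, against 82.9 to 89.7 and 36.4 to 67.8), and their part in the values was not tested.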

How the results depend on the processing

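Of the log2 fold changes recomputed under the alternatives, 956 kept their direction and side of the threshold, 38 lost and 27 gained a call, and 27 changed sign, none of them called. With other scalings (RLE size factors, library totals) all 50 member values kept direction and call. In CD8 cells the number of members called higher was 1 in title range B alone and 0 to 1 with a library left out. The number called lower was 1 in range A alone and 3 to 6 with a library left out. The number without overlap was 4 to 7 with a library left out, which can only keep or raise this number for any set of genes. Without CD8 week 1 replicate 3, Btla rose (1.63, adjusted p 0.047) and Havcr2 fell. In CD4 cells the number called higher was 1 (Entpd1) with replicate 2 of both groups left out and 0 to 1 with a library left out, and the number without overlap was 3 to 5. DESeq2 called 1 member lower for the difference of the changes. For CD8 against CD4 at week 1, 0 to 2 members were called lower with a library left out. For the long-term groups limma-voom called 3 members higher and 2 lower, and 3 were higher without CD8 week 4 replicates 1 and 2. Apart from the title ranges, shares over all genes are not given for these alternatives, so nothing is read from the counts. Ordered by CPM without length, 3, 5 and 5 members kept their place in CD8 week 1, CD8 week 4 and CD4 week 1.

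Signs changed as follows. In CD8 cells Btla stood at -0.74 in range A. In CD4 cells Tigit ranged from -3.22 to 0.40 with a library left out, and Cd160 from -0.27 to 0.52, with -0.064 under limma-voom and -0.23 with replicate 2 of both groups left out. For the difference of the changes, leaving out 1 library gave -0.85 to 0.31 for Pdcd1, -1.49 to 0.11 for Havcr2, -1.88 to 1.71 for Tigit and -0.62 to 0.16 for Entpd1. Limma-voom gave -0.11 for Lag3 and -0.37 for Tigit. Without CD8 week 4 replicates 1 and 2 it was -0.94 for Lag3, -0.17 for Tigit and -0.19 for Cd160, and -0.61 for Tigit with replicate 2 of both CD4 groups left out. Cd101 in CD8 week 4 against CD4 week 3 ranged from -0.53 to 0.033. The cause of these changes was not tested.

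The labels give the groups no shared animals or cultures, and whether neighbouring title numbers pair the libraries is not stated. The deviations from the group means correlated at -0.051 to 0.47 within the 5 CD8 and -0.11 to 0.44 within the 5 CD4 neighbour pairs, and 2 of 5 long-term libraries of each cell type correlated best with their own neighbour. With neighbours as a replicate block, chosen after seeing the data and resting on that unstated pairing, 7 CD8 members were called lower and 2 higher (Cd160 0.61 and Entpd1 0.58, adjusted p 0.0317 and 0.0287), against 17% and 17.6% of all genes. Havcr2 (-2.02, 0.00268) and Tigit (-1.58, 0.00317) were the added falls. In CD4 cells 5 were lower, with Tigit added (-1.52, 0.0465), and 1 higher (Entpd1 0.87, 0.00876), against 10.4% and 8.82%. No call was lost, none was made for the difference of the changes, and there Tigit stood at -0.056. Depth limited Havcr2 in CD4 cells and Cd200 in CD8 week 4 most, with 11 counts at week 1, 4 at week 3 and 18 at week 4.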
